A study of Mus musculus with 12 samples.

Results

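The genes described here are 46 mouse genes of the Tfeb/Tfe3 regulators, the folliculin complex, the lysosome and autophagy, chosen by name from the 23496 genes of a table of 12 RNA-seq libraries from embryonic stem cells (ESCs). They comprise the 3 MiT/TFE transcription factors Tfeb, Tfe3 and Mitf, the 3 folliculin complex genes Flcn, Fnip1 and Fnip2, 16 lysosomal enzymes and lumen proteins, 6 lysosomal membrane proteins, 5 genes of the vacuolar proton pump (V-ATPase) and 13 autophagy genes. The libraries form 3 groups of 4. Wild-type and Tfcp2l1 knockout ESCs were both kept in 2i, a serum-free N2B27-based medium that held LIF (1000 units/mL) together with 3 µM CHIR99021, which inhibits GSK3, and 1 µM PD0325901, which inhibits MEK. Wild-type ESCs of the third group grew with 15% fetal bovine serum (FBS) and the same amount of LIF, so that all groups received LIF and no group combined serum with the inhibitors. The labels do not name the ESC line, its sex, the knockout allele or the number of clones, and do not say whether feeder cells were used. Nor do they say whether a group's 4 libraries were grown separately: the p-values thus reflect the spread among these samples alone, and that spread may be technical.

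Tfeb, Tfe3 and Mitf are basic helix-loop-helix leucine zipper factors that bind E-box sequences in the promoters of genes for lysosome biogenesis and autophagy. When amino acids are plentiful, Rag GTPases bring the kinase complex mTORC1 to the lysosome, where it phosphorylates these factors and holds them in the cytoplasm. Folliculin and its Fnip partners act on the Rag GTPases in this step, and in mouse ESCs folliculin is known for keeping Tfe3 out of the nucleus as cells leave self-renewal. Transcript levels do not show where a factor sits in the cell or whether it is active.

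Levels are FPKM, fragments per kilobase of transcript scaled to library size, as the authors deposited them, summed per gene. The number of reads is unknown; FPKM summed to 347772 to 358340 per library, and 11542 to 11869 genes per library reached 1 FPKM. The 10 ESC markers examined summed to 1948 to 2318 FPKM in wild-type 2i, 1798 to 1927 in the knockout and 1926 to 2144 in FBS. Pou5f1 alone averaged 936, 805 and 760.3 FPKM in these groups. By the test described below, 5 of the 10 fell and 2 rose in the knockout (50% and 20%, beside 21.4% and 24% of all genes tested). Between the media 5 were higher in 2i and 2 lower (50% and 20%, beside 37.1% and 35.3%). The 10 include Tfcp2l1, the gene knocked out, which is counted among the 5 that fell and the 5 higher in 2i. Lin28a averaged 12.8, 39.0 and 113 FPKM in the same groups, Utf1 60.7, 60.2 and 383, and Klf4 264, 210.3 and 91.9. Tfcp2l1 transcript in the libraries labelled knockout was at 59.8% of the wild-type 2i level, with 72.0 to 84.7 against 112 to 143 FPKM; which exons the allele removes is not given in the sources used here, so the transcript level does not check the labels. Of 20 fibroblast markers, 18 were higher in the knockout (90%, beside 24% of all genes tested). The 20 summed to 699 to 890.2 FPKM in wild-type 2i, 827 to 1310.4 in the knockout and 288 to 365 in FBS. None of the 20 was at 0. Between the media 13 of them were higher in 2i and 4 lower (65% and 20%, beside 37.1% and 35.3% of all genes tested). Of 13 endoderm markers 5 reached the filter for testing, and the list summed to 17.2 to 23.0, 17.2 to 21.7 and 35.5 to 45.1 FPKM in the same order of groups. Of 10 macrophage markers, a cell type rich in lysosomes, none reached the filter for testing, and they summed to at most 1.82 FPKM in any library. In these bulk samples, fewer cells of a type and less RNA per cell cannot be told apart.

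Differences are given as log2(FPKM + 1) with the standard error (SE) from limma fitted to all 12 libraries, and a gene was called at a Benjamini-Hochberg adjusted p under 0.05 over the 12329 genes that reached 1 FPKM in 4 or more of the libraries. All 46 genes passed that filter. In the knockout compared with wild type, both in 2i, 18 of the 46 fell and 7 rose, while 21 were not called. Over all genes tested 21.4% fell and 24% rose, against 39.1% and 15.2% of the 46. The median difference was -0.11 for the 46 and 0.01 for all genes tested. In wild-type cells, 28 of the 46 were higher in 2i than in FBS and 8 were lower, or 60.9% and 17.4%, beside 37.1% and 35.3% of all genes tested. The median of the 46 was 0.28 there, against 0.01 for all genes. Counted by libraries, the 4 knockout values of 18 genes lay below all 4 wild-type 2i values (20.4% of all genes tested) and those of 6 lay above (23.7%), and between the media 25 of the 46 were higher in 2i without overlap (32% of all genes tested) and 6 lower (30.5%). Both comparisons use the same wild-type 2i libraries, so their values are set side by side only. A further fit added each library's fibroblast marker level as a term (the marker term), and its adjusted p is given with each gene described whose call it ended.

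**Figure D1:**
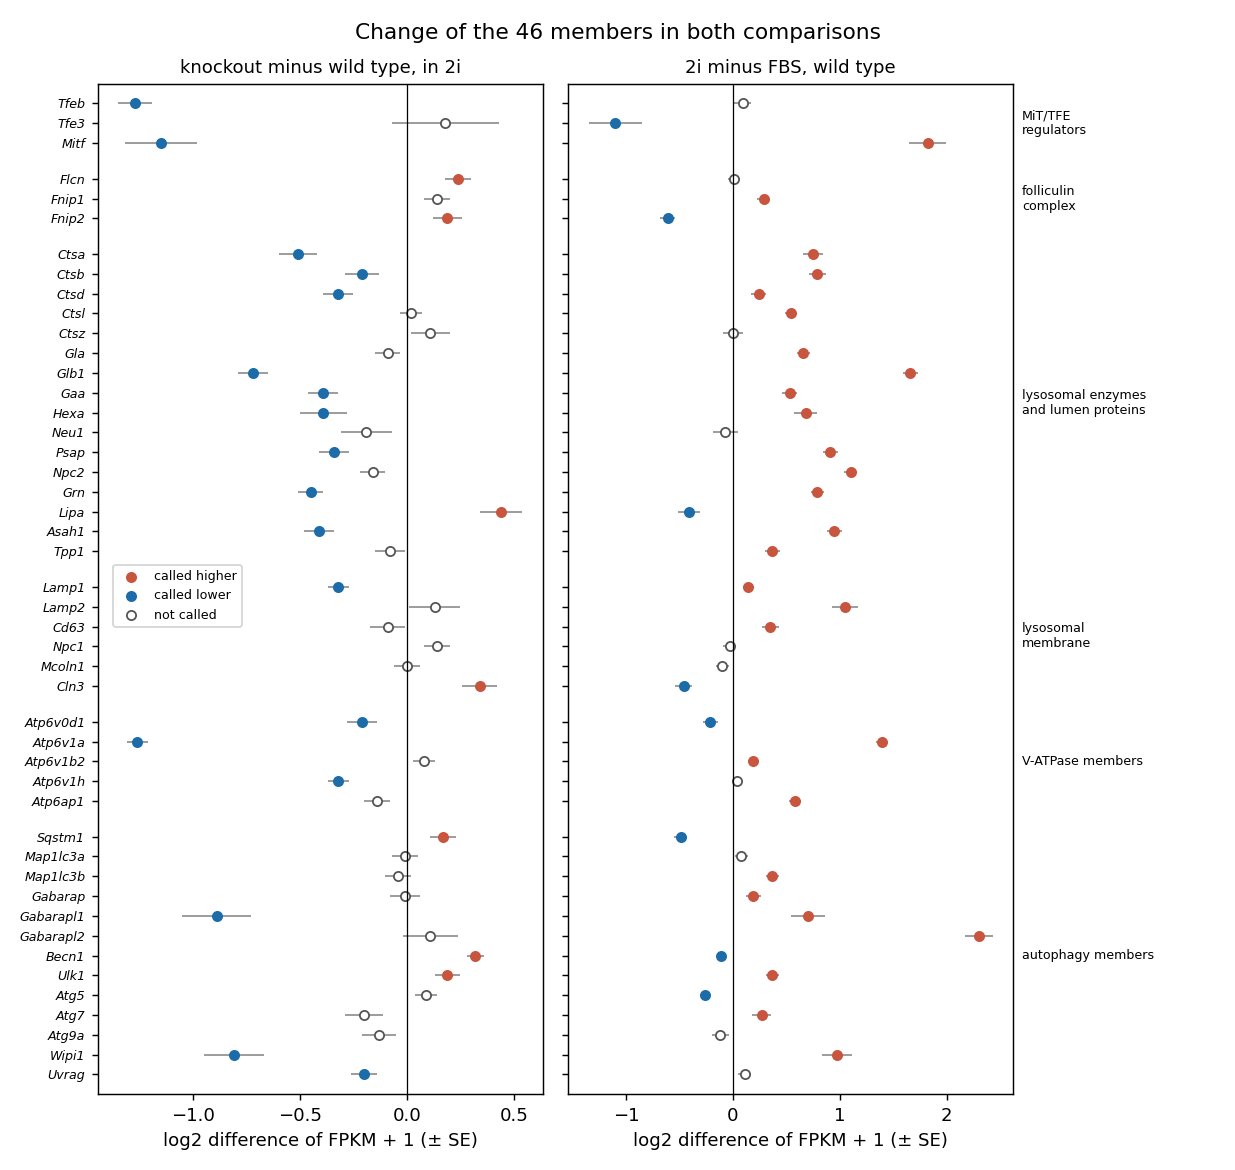
Log2 difference of FPKM + 1 (horizontal axis, with SE bars) of the 46 genes, one row per gene grouped by role, for knockout minus wild type in 2i (left) and 2i minus FBS in wild type (right). Filled points are called higher (red) or lower (blue) and open points are not called. In the knockout panel 9 of the 16 lysosomal enzymes and lumen proteins lie to the left as called (56.2%, beside 21.4% of all genes tested). In the medium panel 13 of 16 lie to the right as called (81.2%, beside 37.1%).

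Tfeb fell in the knockout while Tfe3 did not pass the test. Tfeb, on chromosome 17, measured 15.3, 16.7, 13.2 and 14.1 FPKM in the wild-type 2i libraries, at 5.27, 5.96, 5.04 and 6.02 in the knockout and at 12.7, 15.4, 13.0 and 14.5 in FBS. All 4 knockout libraries lay below every wild-type library, and the 2 wild-type groups overlapped. The knockout mean was 37.6% of the wild-type 2i mean (5.57 ± 0.491 against 14.8 ± 1.52 FPKM, SD, n = 4 each), a log2 difference of -1.27 (SE 0.08, adjusted p = 3.33e-07). Between the media the difference was 0.09 (SE 0.08, adjusted p = 0.365).

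The summed Tfeb level in the media hid a difference between its RefSeq entries. The table lists 3 entries for Tfeb on mm9, which differ in where they start: NM_001161722 spans chr17:47873986-47929365, NM_001161723 spans chr17:47874880-47929365 and NM_011549 spans chr17:47922693-47929365. The long entry NM_001161722 was listed at 14.8, 15.5, 12.3 and 13.8 FPKM in wild-type 2i, at 3.95, 5.37, 4.57 and 5.19 in the knockout and at 6.61, 9.68, 6.39 and 7.37 in FBS. Here the 3 groups were apart, with 2i highest, FBS between and the knockout lowest. The short entry NM_011549 was at 0.485, 1.22, 0.882 and 9.63e-05 FPKM in wild-type 2i, at 1.32, 0.588, 0.474 and 0.830 in the knockout and at 6.08, 5.75, 6.57 and 7.15 in FBS. It was thus low in both 2i groups, which overlapped, and higher in every FBS library. NM_001161723 was at most 0.275 FPKM in any library. The short entry made up 46.3% ± 6.12 of Tfeb FPKM in FBS (SD, n = 4), 4.28% ± 3.39 in wild-type 2i and 14.5% ± 7.26 in the knockout.

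In a fit to single entries, 17.8% of the 14606 entries tested fell in the knockout and 19.7% rose; between the media 34.1% were higher in 2i and 32.2% lower. NM_001161722 fell in the knockout, with a log2 difference of -1.39 (SE 0.12, adjusted p = 7.77e-06), and was higher in 2i than in FBS by 0.84 (SE 0.12, adjusted p = 6.29e-05). NM_011549 differed by 0.17 in the knockout (SE 0.22, adjusted p = 0.57) and was lower in 2i than in FBS, by -2.22 (SE 0.22, adjusted p = 2.36e-06). At such low levels the size depends on the pseudocount: with 0.01 in place of 1 these 2 differences were 1.47, not called, and -4.55, called. Cufflinks divides reads between overlapping entries, so an entry's level is an estimate and not a count of its own reads. For the short entry the authors' bounds were 4.92 to 8.08 FPKM over the FBS libraries and 0 to 1.59 over wild-type 2i.

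The RefSeq promoter windows, from 250 bases before to 50 after the start site on GRCm38.p6, are shown for both Tfeb starts because the entries with these starts differed between the groups. They were matched to the entries by the spacing between starts, and are given on the plus strand of chromosome 17, at chr17:47736787-47737086 and chr17:47785494-47785793. Neither holds the E-box core CACGTG, which would stand in capitals.

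Tfeb NM_001161722: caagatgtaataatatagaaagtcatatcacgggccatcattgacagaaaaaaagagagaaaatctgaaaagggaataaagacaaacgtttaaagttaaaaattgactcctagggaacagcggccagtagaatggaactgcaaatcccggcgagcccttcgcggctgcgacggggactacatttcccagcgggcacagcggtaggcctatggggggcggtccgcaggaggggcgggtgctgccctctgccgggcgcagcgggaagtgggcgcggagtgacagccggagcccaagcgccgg
Tfeb NM_011549: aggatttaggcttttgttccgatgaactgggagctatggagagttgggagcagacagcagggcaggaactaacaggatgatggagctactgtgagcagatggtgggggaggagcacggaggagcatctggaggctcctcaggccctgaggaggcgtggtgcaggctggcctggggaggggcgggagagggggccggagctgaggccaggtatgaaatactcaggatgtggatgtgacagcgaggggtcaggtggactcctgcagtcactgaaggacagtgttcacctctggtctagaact

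Mitf, the MiT/TFE factor best known for pigment cells, fell in the knockout and was higher in 2i than in FBS. Its summed level on chromosome 6 was 7.20, 8.86, 4.22 and 8.47 FPKM in wild-type 2i, 2.13, 2.33, 2.76 and 3.26 in the knockout and 1.16, 1.28, 1.16 and 1.38 in FBS. No groups overlapped, and wild-type 2i library 3 was the lowest of its group. The log2 difference was -1.15 in the knockout (SE 0.17, adjusted p = 0.000188) and 1.82 between the media (SE 0.17, adjusted p = 6.99e-07). The 579 tested genes of chromosome 6 had a median difference of -0.15 in the knockout and 0.13 between the media. Single libraries had median offsets for that chromosome of -0.110 to 0.211 in wild-type 2i and -0.085 to 0.021 in the knockout. In FBS they were -0.165 to 0.060, so the groups overlapped. Mitf remained called in both comparisons with that offset removed.

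Most of the Mitf difference lay in the entry with the most downstream start. NM_008601, at chr6:97941777-97971352 on mm9, was listed at 5.27, 5.95, 2.52 and 5.79 FPKM in wild-type 2i and at 0.433, 0.366, 0.880 and 1.21 in the knockout, while each FBS library was at 7.38e-05 or less, with an upper bound of at most 0.0170. The long entry NM_001113198, at chr6:97757052-97971352, was at 1.67, 2.78, 1.70 and 2.63 FPKM in wild-type 2i, at 1.69, 1.65, 1.88 and 2.05 in the knockout and at 1.16, 1.15, 1.16 and 1.28 in FBS. NM_008601 thus separated the 3 groups, whereas the long entry overlapped between knockout and wild type. NM_008601 fell in the knockout (log2 difference -1.75, SE 0.21, adjusted p = 8.23e-05) and was called higher in 2i than in FBS (adjusted p = 7.27e-07), with no fold given against a group listed near 0. For NM_001113198 the differences were -0.16 in the knockout (SE 0.12, adjusted p = 0.294) and 0.53 between the media (SE 0.12, adjusted p = 0.00168). With a pseudocount of 0.01 the knockout difference of NM_008601 was -2.83 and the medium difference of NM_001113198 was 0.84, and the marker term ended the latter call (0.34, adjusted p = 0.231). As a share of Mitf FPKM, NM_008601 made up 67.1% ± 5.66 in wild-type 2i, 26.2% ± 9.88 in the knockout and 0.0023% ± 0.0029 in FBS (SD, n = 4 each).

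The windows of both Mitf starts, on the plus strand of chromosome 6 (GRCm38.p6), are given for the same reason as those of Tfeb, at chr6:97991533-97991832 and chr6:97806808-97807107. Neither holds CACGTG.

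Mitf NM_008601: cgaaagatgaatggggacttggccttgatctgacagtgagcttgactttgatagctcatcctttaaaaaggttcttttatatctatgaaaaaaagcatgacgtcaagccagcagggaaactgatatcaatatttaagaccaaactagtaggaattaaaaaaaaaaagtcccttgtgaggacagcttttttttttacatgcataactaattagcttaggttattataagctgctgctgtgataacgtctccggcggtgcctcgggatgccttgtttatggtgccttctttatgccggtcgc
Mitf NM_001113198: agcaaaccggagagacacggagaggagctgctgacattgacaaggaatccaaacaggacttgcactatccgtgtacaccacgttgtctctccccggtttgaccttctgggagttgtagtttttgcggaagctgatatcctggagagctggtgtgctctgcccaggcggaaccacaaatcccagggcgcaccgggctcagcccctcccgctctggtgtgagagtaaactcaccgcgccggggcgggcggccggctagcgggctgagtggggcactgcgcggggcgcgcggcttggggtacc

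**Figure D2:**
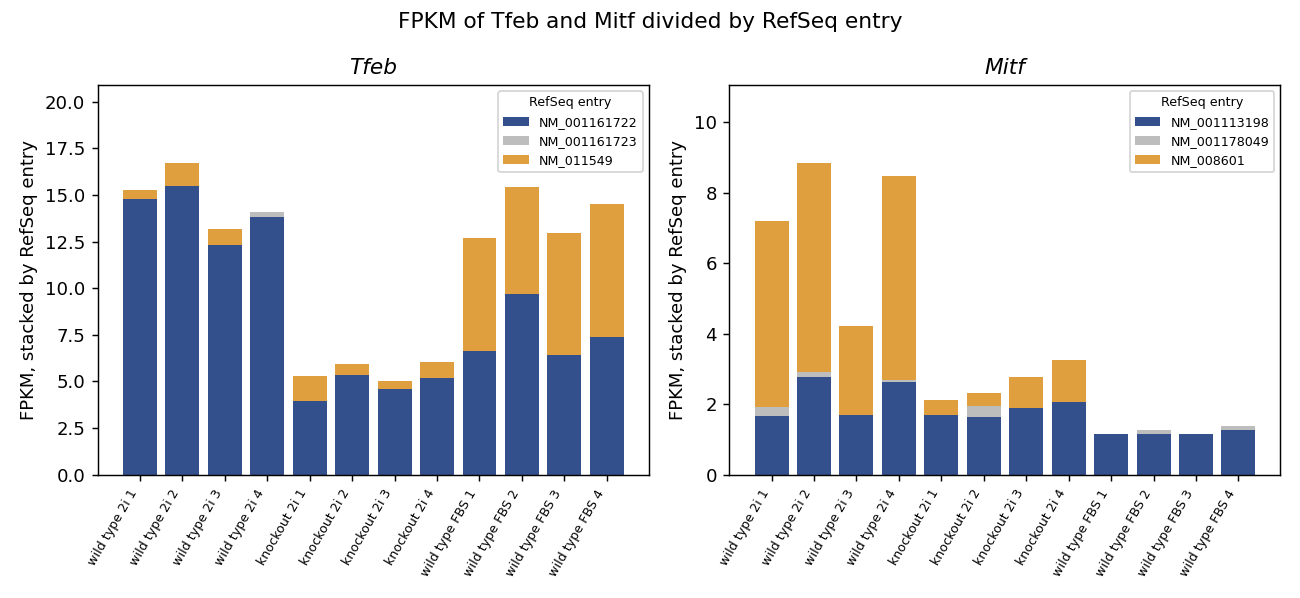
FPKM of Tfeb (left) and Mitf (right) in each of the 12 libraries, as bars stacked by RefSeq entry. For Tfeb the orange short entry is at 5.75 to 7.15 FPKM in the FBS libraries and at most 1.32 elsewhere, and for Mitf the orange entry NM_008601 is at 2.52 to 5.95 FPKM in wild-type 2i, at most 1.21 in the knockout and near 0 in FBS.

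Tfe3 was the highest of the MiT/TFE transcripts by mean FPKM in each group, and its wild-type libraries varied widely. It stood at 20.7, 23.4, 18.2 and 43.5 FPKM in wild-type 2i, at 29.3, 28.1, 26.5 and 29.5 in the knockout and at 46.4, 49.4, 42.8 and 89.1 in FBS. Library 4 was far above the others in both wild-type groups, so that the wild-type 2i libraries spanned all of the knockout range and reached into the FBS range. The knockout difference was 0.18 (SE 0.25, adjusted p = 0.59), and 0.44 (adjusted p = 0.0979) without wild-type 2i library 4. Tfe3 was lower in 2i than in FBS by -1.10 (SE 0.25, adjusted p = 0.0016). Of its 6 RefSeq entries, NM_001105197 carried the largest mean share in each group, with 46.4% ± 5.23, 47.5% ± 4.55 and 55.6% ± 1.24 of Tfe3 FPKM in wild-type 2i, the knockout and FBS (SD, n = 4 each).

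Of the folliculin complex, Flcn and Fnip2 rose in the knockout, both by small amounts. Flcn, which encodes folliculin, was at 17.0, 17.7, 18.0 and 20.2 FPKM in wild-type 2i, at 23.4, 21.2, 21.5 and 20.7 in the knockout and at 16.8, 17.8, 18.0 and 20.0 in FBS. The knockout libraries lay above all wild-type 2i libraries, the closest pair being 20.7 and 20.2. The difference was 0.24 (SE 0.06, adjusted p = 0.00856) in the knockout and 0.01 (SE 0.06, adjusted p = 0.931) between the media. The knockout call was lost with the marker term (0.28, adjusted p = 0.137) and with the highest RefSeq entry in place of the sum (0.25, adjusted p = 0.0525).

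Fnip1 and Fnip2 encode the folliculin-interacting partners. Fnip2 averaged 5.29 ± 0.650 FPKM in wild-type 2i, 6.16 ± 0.277 in the knockout and 8.58 ± 0.309 in FBS (SD, n = 4 each), and only the 2i groups overlapped. It rose by 0.19 in the knockout (SE 0.07, adjusted p = 0.037), a call lost without wild-type 2i library 1, 2 or 3 or knockout library 1, 2 or 3 (adjusted p up to 0.099), with the 2i libraries fitted alone (0.0615) or with the marker term (0.461). It was lower in 2i than in FBS by -0.61 (SE 0.07, adjusted p = 4.20e-06). Fnip1 was at 9.34 to 10.9 FPKM in wild-type 2i, at 10.8 to 11.4 in the knockout and at 7.34 to 9.05 in FBS. Its difference was 0.14 in the knockout (SE 0.06, adjusted p = 0.1; 0.0485 without wild-type 2i library 4), and it was higher in 2i than in FBS by 0.29 (SE 0.06, adjusted p = 0.00127; 0.0659 with the marker term).

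**Figure D3:**
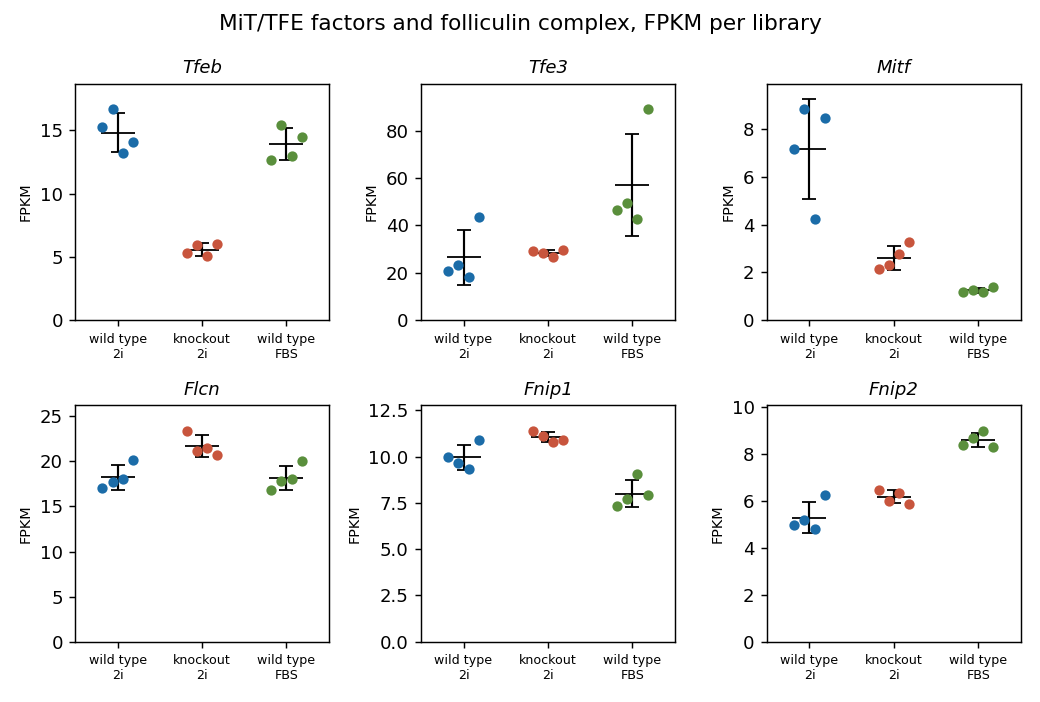
FPKM (vertical axis, from 0) of the 3 MiT/TFE factors and the 3 folliculin complex genes in wild-type 2i, knockout 2i and wild-type FBS; points are libraries, horizontal lines means and bars 1 SD (n = 4). Tfeb in the knockout lies at 5.04 to 6.02 FPKM, below every wild-type library, and the highest Tfe3 point in each wild-type group is library 4.

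Promoter windows were available from RefSeq (GRCm38.p6) for 39 of the 46 genes and were searched on both strands. The E-box core CACGTG occurred in the windows of 14 of the 39 genes (35.9%), in 11 of the 22 lysosomal genes with a window (50%), and in 12.1% of the 9783 tested genes with a window. Its extension TCACGTGA, each match of which also counts as a CACGTG match, occurred in 7 of the 39 (17.9%) beside 2.23% of tested genes. The palindrome GTCACGTGAC, known as the CLEAR element, occurred in 1 of the 39, Cln3, which rose in the knockout, beside 0.818%. The M-box core TCATGTG, or CACATGA on the other strand, occurred in Ctsa, Gla, Grn and Tpp1 (10.3%) beside 2.46%. By knockout call, CACGTG was in 7 of the 15 genes that fell, 1 of the 6 that rose and 6 of the 18 not called. A match is a description of the letters in the window, and binding was not measured.

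The windows of 4 lysosomal genes that fell in the knockout are printed below to show where the E-box letters lie near the start site. They occur once in Atp6v1a and Glb1 and more often in Lamp1 and Ctsa. Windows of Cln3, which rose, and of Gla and Mcoln1, not called, also hold TCACGTGA and are not printed. In the printed windows CACGTG, TCACGTGA and CACATGA stand in capitals. Atp6v1a is on the minus strand at chr16:44139210-44139509, and the others are on the plus strand, Glb1 at chr9:114400828-114401127, Lamp1 at chr8:13158911-13159210 and Ctsa (the start of NM_008906) at chr2:164833523-164833822, all on GRCm38.p6.

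Atp6v1a: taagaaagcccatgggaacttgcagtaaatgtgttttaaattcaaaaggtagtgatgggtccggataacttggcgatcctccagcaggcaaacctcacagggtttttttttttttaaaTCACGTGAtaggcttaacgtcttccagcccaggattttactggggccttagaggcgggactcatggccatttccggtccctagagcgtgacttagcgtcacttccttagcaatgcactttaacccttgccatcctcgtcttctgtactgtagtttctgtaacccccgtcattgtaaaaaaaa
Glb1: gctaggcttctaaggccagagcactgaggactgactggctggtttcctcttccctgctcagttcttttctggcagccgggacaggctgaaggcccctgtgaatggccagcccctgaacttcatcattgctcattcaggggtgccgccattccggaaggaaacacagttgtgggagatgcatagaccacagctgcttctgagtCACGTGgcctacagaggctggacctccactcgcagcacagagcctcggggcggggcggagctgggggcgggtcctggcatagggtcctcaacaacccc
Lamp1: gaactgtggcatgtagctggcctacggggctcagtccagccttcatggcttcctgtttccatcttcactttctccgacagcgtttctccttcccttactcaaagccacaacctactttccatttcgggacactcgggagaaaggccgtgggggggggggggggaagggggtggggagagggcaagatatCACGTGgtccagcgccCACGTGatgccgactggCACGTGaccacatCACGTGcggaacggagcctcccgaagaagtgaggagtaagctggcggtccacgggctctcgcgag
Ctsa NM_008906: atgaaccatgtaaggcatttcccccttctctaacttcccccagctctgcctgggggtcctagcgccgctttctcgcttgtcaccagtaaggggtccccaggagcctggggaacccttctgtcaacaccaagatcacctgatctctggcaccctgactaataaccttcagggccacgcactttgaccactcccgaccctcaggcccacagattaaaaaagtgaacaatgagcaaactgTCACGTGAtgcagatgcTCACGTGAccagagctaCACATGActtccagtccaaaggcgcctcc

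The Lamp1 window holds 4 copies of CACGTG, beginning 61, 45, 28 and 15 bases before the start site. The Ctsa window holds TCACGTGA from 13 bases before and from 5 bases after the start, and CACATGA from 22 bases after it. In Atp6v1a TCACGTGA begins 132 bases before the start, and in Glb1 CACGTG begins 48 bases before it.

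Lysosomal hydrolases break down proteins, glycans and lipids inside the organelle, and their cofactors sit in its lumen. Of these 16 genes 9 fell in the knockout (Ctsa, Ctsb, Ctsd, Glb1, Gaa, Hexa, Psap, Grn and Asah1), Lipa rose and 6 were not called, with a median difference of -0.27. The shares that fell and rose were 56.2% and 6.25%, beside 21.4% and 24% of all genes tested. Between the media 13 of the 16 were higher in 2i (81.2%, beside 37.1%) and Lipa was lower (6.25%, beside 35.3%), with a median of 0.67. Their summed level was 1267 to 1445 FPKM in wild-type 2i, 1046 to 1179.9 in the knockout and 821 to 890.4 in FBS, 3 ranges that did not overlap.

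Glb1, the lysosomal beta-galactosidase, had the largest fall among them. It stood at 80.7, 92.4, 78.8 and 76.4 FPKM in wild-type 2i, at 46.9, 49.0, 51.9 and 49.9 in the knockout and at 23.8, 25.0, 28.1 and 24.0 in FBS. The 3 groups were apart, with the knockout between the wild-type groups. The difference was -0.72 in the knockout (SE 0.07, adjusted p = 4.71e-06) and 1.66 between the media (SE 0.07, adjusted p = 4.44e-10). The wild-type 2i mean was 3.25-fold the FBS mean, and the knockout mean was 60.2% of the wild-type 2i mean.

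Asah1, the acid ceramidase, and Grn, which encodes progranulin, showed the same order of groups. Asah1 was at 97.5, 99.4, 108 and 96.7 FPKM in wild-type 2i, at 73.8, 73.3, 77.3 and 77.0 in the knockout and at 48.3, 56.3, 55.8 and 45.6 in FBS. Grn was at 83.6, 87.5, 91.7 and 94.7, at 60.9, 63.3, 66.5 and 69.4, and at 46.8, 54.1, 48.4 and 55.7 FPKM in the same groups. No groups of either gene overlapped. Asah1 fell by 0.41 on the log2 scale in the knockout (SE 0.07, adjusted p = 0.000333) and was 0.95 higher in 2i than in FBS (SE 0.07, adjusted p = 4.76e-08). Grn fell by 0.45 (SE 0.06, adjusted p = 0.000127) and was 0.79 higher in 2i (SE 0.06, adjusted p = 1.84e-07).

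Psap, the precursor of the saposins that help lipid hydrolases, was the most abundant transcript of the group in both 2i conditions, with means of 255 ± 20.7, 200.2 ± 11.1 and 135 ± 10.7 FPKM in wild-type 2i, the knockout and FBS (SD, n = 4 each). It differed by -0.34 in the knockout (adjusted p = 0.00153) and by 0.91 between the media (adjusted p = 1.11e-07). Ctsa, the protective protein cathepsin A, averaged 55.3 ± 6.63, 38.3 ± 2.82 and 32.4 ± 2.74 FPKM, and fell by 0.51 in the knockout (adjusted p = 0.00051). Gaa, the acid alpha-glucosidase that degrades glycogen, fell by 0.39 (adjusted p = 0.000862) and Hexa, a beta-hexosaminidase subunit, also by 0.39 (adjusted p = 0.00921; 0.0548 with the marker term, at -0.58). Ctsd, the aspartic protease cathepsin D, fell by 0.32 (adjusted p = 0.00184), or -0.50 with the marker term. Between the media Ctsd and Hexa were higher in 2i, by 0.24 and 0.68 (adjusted p = 0.00561 and 7.14e-05). The marker term ended both of these calls, at 0.05 and 0.48 (adjusted p = 0.724 and 0.0561). In Psap, Ctsa, Gaa, Hexa and Ctsd no knockout library reached the wild-type 2i range. Ctsb, the cysteine protease cathepsin B, fell by 0.21 (adjusted p = 0.0459) with overlapping groups, and its call was lost without any 1 of the 12 libraries other than wild-type 2i library 3 or knockout library 4 (adjusted p up to 0.141). Several other settings ended it too, among them no filter, TPM and quantile scaling (adjusted p = 0.0682, 0.0733 and 0.0738), and with the marker term it was -0.39 (0.0681).

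Other enzymes and lumen proteins differed between the media and not, by the test, between the genotypes. Npc2, which hands cholesterol to the membrane protein Npc1, was at 89.5, 92.5, 89.1 and 99.7 FPKM in wild-type 2i, at 78.0, 81.9, 82.2 and 90.8 in the knockout and at 40.9, 40.5, 48.5 and 40.9 in FBS. Both 2i groups lay far above FBS (1.10, SE 0.06, adjusted p = 1.31e-08) and overlapped each other (-0.16, SE 0.06, adjusted p = 0.0681; 0.0322 without knockout library 4 and 0.0253 without FBS library 3). Ctsl, the cysteine protease cathepsin L, averaged 174 ± 10.4 and 176 ± 8.28 FPKM in the 2i groups and 119 ± 3.51 in FBS. Its difference was 0.02 in the knockout (SE 0.05, adjusted p = 0.819) and 0.54 between the media (adjusted p = 5.14e-07). Ctsz, the carboxypeptidase cathepsin Z, averaged 56.2 ± 7.67, 60.4 ± 4.39 and 56.0 ± 4.14 FPKM and was called in neither comparison (adjusted p = 0.341 and 0.986).

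Lipa, the acid lipase that frees cholesterol and fatty acids, went the other way at a low level. It was at 2.40, 2.74, 3.28 and 3.42 FPKM in wild-type 2i, at 4.21, 4.57, 4.00 and 4.56 in the knockout and at 4.09, 5.26, 4.20 and 3.57 in FBS. Wild-type 2i lay below both other groups. The difference was 0.44 in the knockout (SE 0.10, adjusted p = 0.00443) and -0.41 between the media (SE 0.10, adjusted p = 0.00281). With the marker term the knockout difference was 0.23 and no longer called (adjusted p = 0.422), and that between the media was -0.63 and called (adjusted p = 0.014).

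Among the 6 lysosomal membrane proteins, Lamp1 fell and Cln3 rose in the knockout and 4 were not called. These shares, 16.7% each, were below the 21.4% and 24% of all genes tested. Lamp1, a heavily glycosylated coat protein of the lysosomal membrane, was at 165, 182, 166 and 187 FPKM in wild-type 2i, at 137, 139.7, 139 and 144 in the knockout and at 148, 166, 156 and 163 in FBS. The knockout libraries lay below all wild-type libraries, and the wild-type groups overlapped at 165 and 166. The difference was -0.32 in the knockout (SE 0.05, adjusted p = 0.000311) and 0.14 between the media (SE 0.05, adjusted p = 0.0207), and the second call was lost without wild-type 2i library 2 or 4 or FBS library 1 (adjusted p up to 0.0695), in a fit to the wild-type libraries alone (0.0516) and with the marker term (0.387).

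Lamp2, a Lamp1 relative needed for autophagosome clearance, did not follow Lamp1. It was at 38.7, 42.2, 35.5 and 45.1 FPKM in wild-type 2i, at 40.5, 42.8, 44.9 and 48.0 in the knockout and at 18.9, 18.6, 24.4 and 14.8 in FBS, so that both 2i groups overlapped and stood above FBS. The differences were 0.13 (SE 0.12, adjusted p = 0.411) and 1.05 (SE 0.12, adjusted p = 4.27e-06). Of its RefSeq entries, which share most of their length and differ at the 3' end, NM_010685 carried 71.9% ± 5.09 of Lamp2 FPKM in wild-type 2i, 65.2% ± 4.26 in the knockout and 54.8% ± 6.03 in FBS (SD, n = 4 each).

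Cln3, a membrane protein affected in juvenile neuronal ceroid lipofuscinosis, was at 8.25, 7.98, 7.25 and 9.35 FPKM in wild-type 2i, at 10.9, 11.1, 9.81 and 10.7 in the knockout and at 10.8, 11.4, 10.7 and 13.8 in FBS. Wild-type 2i was lowest, without overlap. It rose by 0.34 in the knockout (SE 0.08, adjusted p = 0.00557) and was lower in 2i than in FBS by -0.46 (SE 0.08, adjusted p = 0.000296), or -0.83 by its highest entry. The marker term ended both calls, at 0.41 (adjusted p = 0.102) and -0.39 (adjusted p = 0.0622). The tetraspanin Cd63 was higher in 2i than in FBS (0.35, adjusted p = 0.00182), with 31.0 ± 3.64 against 24.1 ± 1.66 FPKM, and differed by -0.09 in the knockout (adjusted p = 0.397). Its difference between the media was 0.08 and not called with the marker term (adjusted p = 0.641). By the highest Cd63 entry in place of the sum, the knockout difference was -0.25 and called (adjusted p = 0.0369). Mcoln1, the lysosomal calcium channel, was between 16.6 and 20.9 FPKM in all libraries and was called in neither comparison.

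The V-ATPase acidifies the lysosome, with a membrane V0 sector and a catalytic V1 sector. Of its 5 genes here, Atp6v1a, Atp6v1h and Atp6v0d1 fell in the knockout (60%, beside 21.4% of all genes tested). Atp6v1b2 and Atp6ap1 were not called. Atp6v1a, the catalytic A subunit, was at 98.7, 98.8, 101 and 102 FPKM in wild-type 2i, at 40.3, 40.3, 42.3 and 42.2 in the knockout and at 34.4, 38.7, 37.9 and 40.0 in FBS. Wild-type 2i stood alone, and the knockout lay just above FBS. The knockout mean was 41.1% of wild type (41.2 ± 1.13 against 100.3 ± 1.81 FPKM, SD, n = 4 each), a difference of -1.26 (SE 0.05, adjusted p = 3.74e-09), and 2i was above FBS by 1.39 (SE 0.05, adjusted p = 1.10e-10).

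The B subunit gene Atp6v1b2, whose product pairs with the A subunit in the V1 ring, did not follow. It averaged 64.0 ± 3.81 FPKM in wild-type 2i, 67.8 ± 2.20 in the knockout and 56.0 ± 2.66 in FBS. The differences were 0.08 (SE 0.05, adjusted p = 0.195) and 0.19 (SE 0.05, adjusted p = 0.00414; 0.351 with the marker term, at 0.11). Atp6v1h, a regulatory V1 subunit, was at 47.3 to 50.6 FPKM in wild-type 2i, at 36.3 to 40.3 in the knockout and at 43.9 to 51.7 in FBS, and fell by 0.32 in the knockout (SE 0.05, adjusted p = 0.000365). With the marker term this was -0.23 and not called (adjusted p = 0.113). Atp6v0d1, a V0 subunit, averaged 48.4 ± 4.86, 41.6 ± 1.24 and 56.1 ± 5.37 FPKM. It differed by -0.21 in both comparisons (adjusted p = 0.0385 and 0.0226). Leaving out wild-type 2i library 1 or 4 or any knockout library ended the first of these calls (adjusted p up to 0.113), and leaving out wild-type 2i library 1, 2 or 3 or FBS library 3 or 4 ended the second (up to 0.0721). So did the marker term for both (adjusted p = 0.288 and 0.191), no filter, TPM and quantile scaling for the first (0.0573, 0.0615 and 0.0558) and a fit to the wild-type libraries alone for the second (0.0508). The accessory subunit gene Atp6ap1 averaged 45.2 ± 4.12, 40.8 ± 2.27 and 29.9 ± 0.500 FPKM, with -0.14 in the knockout (adjusted p = 0.0677; 0.0167 without wild-type 2i library 3 and 0.0496 without knockout library 4) and 0.58 between the media (adjusted p = 1.99e-06).

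**Figure D4:**
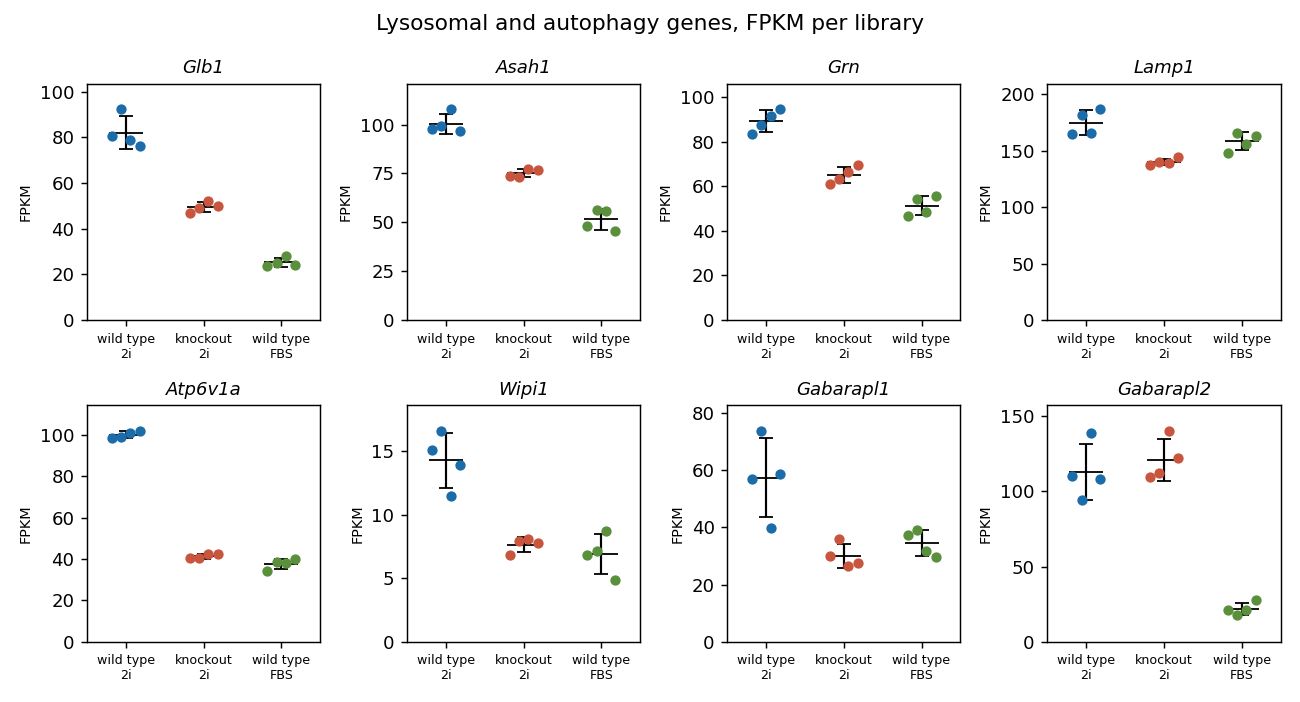
FPKM (vertical axis, from 0) of 8 lysosomal and autophagy genes in wild-type 2i, knockout 2i and wild-type FBS; points are libraries, horizontal lines means and bars 1 SD (n = 4). Atp6v1a in wild-type 2i (98.7 to 102 FPKM) stands apart from the other groups, and Gabarapl2 is at 94.4 to 140.3 FPKM in both 2i groups and at 18.0 to 27.5 in FBS.

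Autophagy genes were called in both directions in the knockout, at shares near those of all genes tested. Of the 13, 3 rose (Sqstm1, Becn1 and Ulk1) and 3 fell (Gabarapl1, Wipi1 and Uvrag), which is 23.1% each beside 24% and 21.4% of all genes, and the median was -0.01. Uvrag, at -0.20 (adjusted p = 0.0138), lost its call with the marker term (0.304). Between the media the median was 0.19, and 7 were called higher in 2i (53.8%, beside 37.1%) and 3 lower (23.1%, beside 35.3%).

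The genes for the ubiquitin-like proteins that attach to autophagosome membranes differed among themselves. Gabarapl2 was at 110.0, 94.4, 139 and 108 FPKM in wild-type 2i, at 109.8, 112, 140.3 and 122 in the knockout and at 21.3, 18.0, 21.4 and 27.5 in FBS. Both 2i groups overlapped and lay above FBS, and the wild-type 2i mean was 5.12-fold the FBS mean. The difference was 2.30 between the media (SE 0.13, adjusted p = 9.87e-09), the largest of the 46, and 0.11 in the knockout (SE 0.13, adjusted p = 0.531).

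Gabarapl1 instead fell in the knockout. It was at 56.9, 73.7, 39.8 and 58.7 FPKM in wild-type 2i, at 29.8, 36.0, 26.5 and 27.6 in the knockout and at 37.2, 39.1, 31.6 and 29.6 in FBS. Wild-type 2i lay above both other groups, although its library 3, at 39.8, was close to the highest FBS library at 39.1. The difference was -0.89 in the knockout (SE 0.16, adjusted p = 0.000692) and 0.70 between the media (SE 0.16, adjusted p = 0.00143). Gabarapl1 is on chromosome 6, whose offset in wild-type 2i library 3 was -0.110 and in libraries 2 and 4 was 0.185 and 0.211; both calls remained with the offset removed. The knockout call was lost with the marker term (-0.63, SE 0.28, adjusted p = 0.151), and the other remained (0.96, adjusted p = 0.0162). Map1lc3a, of the LC3 branch of the same family, was between 27.5 and 33.2 FPKM in all libraries and was not called.

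Wipi1, which binds phosphatidylinositol 3-phosphate on forming autophagosomes, was at 15.1, 16.6, 11.5 and 13.9 FPKM in wild-type 2i, at 6.80, 7.94, 8.12 and 7.73 in the knockout and at 6.86, 7.15, 8.69 and 4.83 in FBS. Wild-type 2i was above both other groups, which overlapped. It fell by 0.81 in the knockout (SE 0.14, adjusted p = 0.000514) and was 0.97 higher in 2i than in FBS (SE 0.14, adjusted p = 3.41e-05).

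Becn1, a subunit of the lipid kinase complex that starts autophagosome formation, was at 29.7, 29.6, 30.7 and 30.3 FPKM in wild-type 2i, at 38.9, 38.2, 36.7 and 37.0 in the knockout and at 34.5, 32.3, 32.6 and 30.8 in FBS. The libraries of each group lay within a narrow range, and the knockout was above both wild-type groups. It rose by 0.32 in the knockout (SE 0.04, adjusted p = 6.80e-05). Between the media it differed by -0.11 (SE 0.04, adjusted p = 0.0276), a call lost without wild-type 2i library 1 or 2 or FBS library 1 (adjusted p up to 0.0901), with the wild-type libraries fitted alone (0.0655) or with the marker term (0.218). Sqstm1, the cargo receptor p62, averaged 118 ± 7.72, 132 ± 2.01 and 166 ± 13.5 FPKM in wild-type 2i, the knockout and FBS (SD, n = 4 each). It differed by 0.17 in the knockout (adjusted p = 0.0336) and by -0.49 between the media (adjusted p = 6.28e-06); the first call was lost without wild-type 2i library 1 or 3 or any knockout library (adjusted p up to 0.0874), and with the marker term (0.302). Ulk1, the kinase that starts autophagy and an mTORC1 substrate, was higher in the knockout by 0.19 (adjusted p = 0.0215) and in 2i over FBS by 0.37 (adjusted p = 8.43e-05), and its knockout call was lost without wild-type 2i library 1 or 2 or knockout library 3 or 4 (adjusted p up to 0.0692). With the marker term neither Ulk1 difference was called, at -0.02 (adjusted p = 0.91) and 0.16 (adjusted p = 0.15).

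Set side by side, 14 of the 46 genes fell in the knockout and were higher in 2i than in FBS: Mitf, Ctsa, Ctsb, Ctsd, Glb1, Gaa, Hexa, Psap, Grn, Asah1, Lamp1, Atp6v1a, Gabarapl1 and Wipi1. Another 5 (Fnip2, Lipa, Cln3, Sqstm1 and Becn1) rose in the knockout and were lower in 2i. Ulk1 was higher in both and Atp6v0d1 lower in both. A further 13 were higher in 2i without a knockout call, among them Gabarapl2, Lamp2, Npc2 and Ctsl, and 6 were called in neither. Because the wild-type 2i libraries enter both differences with opposite sign, opposite directions can arise from those libraries alone and are no separate evidence. The same pairs of calls were not counted over all genes tested. Whether the numbers here differ from that share was not tested.

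The fibroblast marker level differed between the groups: its mean log2 value was 4.32 ± 0.29 in the knockout, 3.61 ± 0.23 in wild-type 2i and 2.86 ± 0.13 in FBS (SD, n = 4 each). The knockout was thus highest in these markers, while most of the 46 genes called there fell; between the media both the markers and most of the called genes were higher in 2i. With the marker term 1098 of the 12329 genes tested were lower in the knockout and 808 higher. Of the 46 genes, 13 were lower, comprising 12 of the 18 above and Npc2, and Becn1 alone was higher. The calls lost were those of Ctsb, Hexa, Atp6v0d1, Atp6v1h, Gabarapl1 and Uvrag among the falls and of Flcn, Fnip2, Lipa, Cln3, Sqstm1 and Ulk1 among the rises. Among those kept, Tfeb differed by -1.15 (SE 0.15, adjusted p = 0.000565), Mitf by -1.27 (SE 0.31, adjusted p = 0.0187), Glb1 by -0.70 (SE 0.12, adjusted p = 0.00376) and Atp6v1a by -1.28 (SE 0.09, adjusted p = 6.87e-06). Gaa and Wipi1 were kept narrowly (adjusted p = 0.0497 and 0.0471). Between the media 2976 of the 12329 genes tested were then higher and 3195 lower, and among the 46 genes 17 were higher and 4 lower. The calls lost there were those of Fnip1, Ctsd, Hexa, Tpp1, Lamp1, Cd63, Atp6v1b2, Map1lc3b, Gabarap, Ulk1 and Atg7, higher in 2i before, and of Cln3, Atp6v0d1, Becn1 and Atg5, lower before. Tfe3 was kept narrowly (-1.25, adjusted p = 0.0499). The marker term is measured in the same libraries and moves with the groups, and its part in these results was not tested.

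The other genes of the pathway were taken from lists of 146 names, of which 136 passed the filter. In the knockout 32 of the 136 fell (23.5%) and 28 rose (20.6%), with a median of -0.01, shares near the 21.4% and 24% of all genes tested. Of 30 other lysosomal enzymes 10 fell (33.3%) and 3 rose, of 15 other membrane proteins 6 fell (40%) and 1 rose, and of 14 other V-ATPase subunits 6 fell (42.9%) and 2 rose. Of 32 other autophagy genes 12 rose (37.5%) and 3 fell. Between the media 41.9% of the 136 were higher in 2i and 27.9% lower, beside 37.1% and 35.3% of all genes tested. Of the 30 enzymes, 15 membrane proteins and 14 V-ATPase subunits, 20, 7 and 8 were higher in 2i (66.7%, 46.7% and 57.1%), against 5, 3 and 2 lower. Of the 32 other autophagy genes 12 were higher in 2i (37.5%, near the share of all genes) and 8 lower (25%).

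Laptm5, a lysosomal membrane protein best known in blood cells, had the largest fall of these genes in the knockout. It was at 54.3, 60.2, 46.8 and 57.1 FPKM in wild-type 2i, at 10.4, 11.7, 9.93 and 13.8 in the knockout and at 14.9, 16.4, 13.9 and 13.7 in FBS. Wild-type 2i stood far above both other groups, at -2.16 in the knockout (adjusted p = 1.41e-08) and 1.82 between the media (adjusted p = 7.22e-09). The 10 macrophage markers together summed to 0.827 to 0.997 FPKM in wild-type 2i, 1.31 to 1.82 in the knockout and 1.10 to 1.64 in FBS. Among them Itgam averaged 0.212, 0.744 and 0.149 FPKM in these groups. Whether such cells were present was not tested.

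The cysteine protease gene Ctsc averaged 35.7 ± 5.75, 23.1 ± 2.80 and 5.80 ± 0.311 FPKM in wild-type 2i, the knockout and FBS, and Dnase2a, the acid DNase, 30.2 ± 2.80, 17.8 ± 0.691 and 9.39 ± 1.55 (SD, n = 4 each). Both fell in the knockout, by 0.60 (adjusted p = 0.000688) and 0.73 (adjusted p = 5.79e-05), and were higher in 2i than in FBS, by 2.42 (adjusted p = 9.97e-10) and 1.60 (adjusted p = 1.13e-08). They were named by their adjusted p between the media. Knockout differences of the 30 other lysosomal enzymes ran from -0.73 to 0.83. Among V-ATPase subunits Atp6v0c, which forms the V0 ring, fell by 0.77 (adjusted p = 3.17e-05) and Atp6v0b, another proteolipid of that ring, by 0.54 (adjusted p = 1.46e-05). Of the autophagy list Atg13, a partner of Ulk1, averaged 20.9 ± 0.376 FPKM in wild-type 2i, 33.8 ± 2.44 in the knockout and 22.7 ± 2.23 in FBS, and rose by 0.67 in the knockout (adjusted p = 9.90e-06).

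A pooled list covers the Rag GTPases, their Ragulator anchor and mTORC1, which act upstream of Tfeb and Tfe3 phosphorylation. It also holds genes that raise or lower mTORC1 activity, among them Rheb, Tsc1, Tsc2, Depdc5, Nprl2, Nprl3, Mios, Wdr24 and Sesn2. Of its 26 genes 13 were called lower in 2i than in FBS (50%, beside 35.3% of all genes tested) and 4 higher. In the knockout 7 of the 26 rose (26.9%, near the 24% of all genes) and 4 fell (15.4%, beside 21.4%). Rragd was at 4.86, 4.38, 7.41 and 6.88 FPKM in wild-type 2i, at 14.2, 12.6, 13.0 and 13.7 in the knockout and at 9.33, 6.54, 8.84 and 9.72 in FBS. The knockout was above both wild-type groups, which overlapped, and the difference was 1.09 (adjusted p = 7.94e-05), or 0.76 and not called with the marker term (adjusted p = 0.0534). Rragb was at 2.12 ± 0.337, 3.83 ± 0.204 and 10.6 ± 0.818 FPKM (SD, n = 4 each), with differences of 0.64 in the knockout (adjusted p = 6.36e-05) and -1.90 between the media (adjusted p = 8.32e-10). Of 19 genes for enzyme sorting and lysosome fusion, 3 rose and 3 fell in the knockout (15.8% each, beside 24% and 21.4% of all genes). Between the media 6 of the 19 were higher in 2i (31.6%, beside 37.1%) and 7 lower (36.8%, beside 35.3%).

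**Figure D5:**
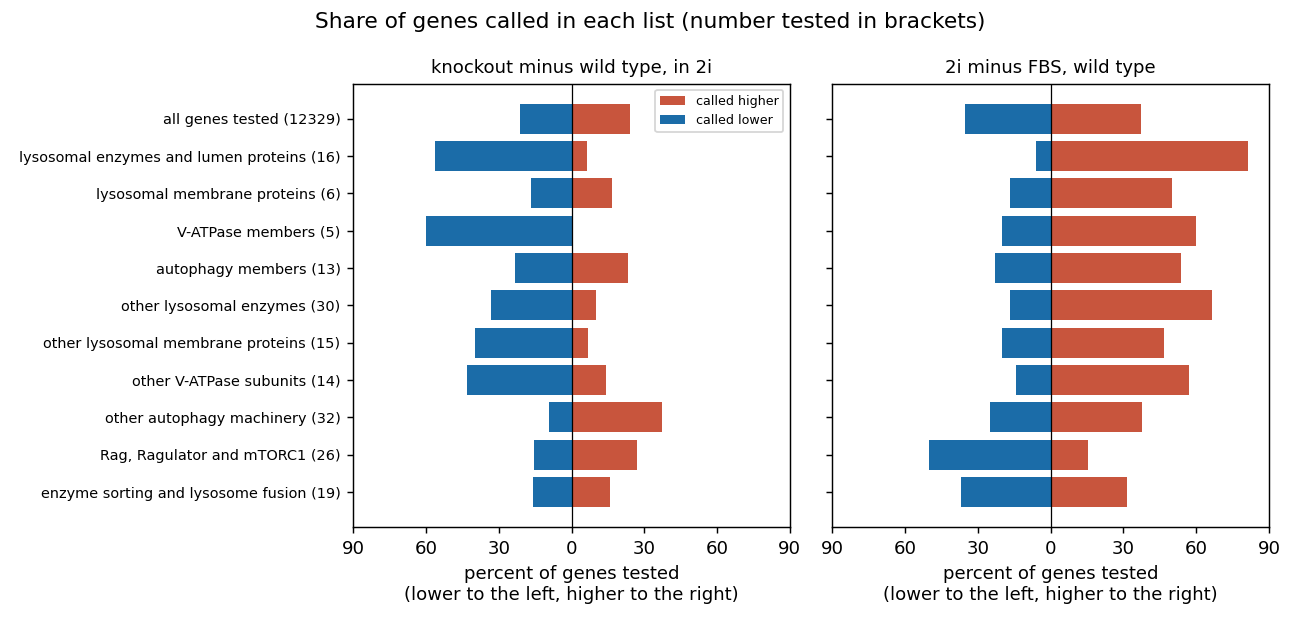
Percent of tested genes called lower (blue, to the left) and higher (red, to the right) in each list, with the number tested in brackets, for knockout minus wild type in 2i (left) and 2i minus FBS (right). In the left panel the called-lower share is 56.2% for lysosomal enzymes and lumen proteins beside 21.4% for all genes tested, and the called-higher share of other autophagy machinery is 37.5% beside 24%.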

How the data were processed

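RNA-seq was made from 12 libraries, 4 per group, with Trizol extraction and a TruSeq kit per the labels' protocols. The submitters' processing notes name CASAVA 1.8.2, Cufflinks without a version and the mouse build mm9; the aligner is not given in the sources used here. Per the file headers, the authors deposited FPKM per RefSeq transcript, with bounds. Because FPKM are already scaled to length and depth, read depth is unknown and no count test was used; for entries of 5 to 20 FPKM the authors' bounds reached a median of 8.18% to 9.81% from the value. No mm9 genome was used.

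Symbols from RefSeq and GENCODE name tables covered 98.8% of 30761 entries, and entries were summed per symbol. The 46 genes have 72 entries, 13 of the genes more than 1; a further 7 genes with a failed estimate, none of the 46, were left out. The labels gave the groups. Genes that reached 1 FPKM in 4 or more libraries were tested with limma 3.58.1 (R 4.3.3) on log2(FPKM + 1), 1 mean per group, eBayes with an intensity trend, two-sided, with Benjamini-Hochberg adjustment; the test was checked on simulated data. Python 3.11.15, pandas 2.3.3, numpy 2.4.6 and matplotlib 3.10.9 were used. The fit to single RefSeq entries was added after seeing the data.

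The 46 genes, the pathway lists (other lysosomal enzymes, membrane proteins, V-ATPase subunits and autophagy genes; Rag, Ragulator and mTORC1; sorting and fusion) and the marker lists (fibroblast, endoderm, macrophage, ESC) were chosen with earlier results of these data known. Named by rule were the regulators, in each other group the 3 members with the smallest adjusted p among those called in each comparison and the highest-expressed member not called. The rule also picked up to 2 called genes per pathway list and comparison. Of these pathway genes, Gusb, Fuca1, Ostm1, Tmem192, Atp6ap2, Atp6v0a1, Atg16l2, Atg10, Atg4b, Sesn3, Gnptg, Gga2 and Arl8a are not described in the results. Other members, such as Ctsa, Ctsb, Ctsd, Gaa, Hexa, Psap, Lipa, Ulk1 and Uvrag, were named after their values were seen. Alternatives were pseudocounts of 0.1 and 0.01, no filter or 5 FPKM, scaling to TPM, by quantiles or by median ratios, a fit to the compared groups only, a replicate block, eBayes without trend, array weights, the highest entry per symbol, removal of the chromosome 6 offset, the fibroblast marker level as a covariate, and leaving out each library.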

Additional observations from a re-analysis of the deposited data

Results flagged for a closer look

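Each of the 46 genes was examined in each group for a library far from the other 3 of its group, which makes 138 groups of 4, and 6 stood out; chance alone marks about 1 in 20. The gap to the nearest library, as a share of the group's range, was 0.858 for Tfe3 in FBS, where library 4 was at 89.1 FPKM and the others at 42.8 to 49.4. Ctsz had such a library in the knockout (library 2 at 67.0 against 57.8 to 59.1 FPKM, 0.860) and in FBS (library 2 at 62.1 against 53.3 to 54.5, 0.859). Npc2 in FBS library 3 was at 48.5 against 40.5 to 40.9 FPKM (0.940). Npc1 in wild-type 2i library 3 was at 12.9 against 13.8 to 13.9 FPKM (0.847), and Atp6v0d1 in wild-type 2i library 4 was at 55.6 against 45.6 to 46.6 (0.895). Between the media, Tfe3 and Npc2 were called with every library left out in turn.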

How the results depend on the processing

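Of the 25 knockout calls among the 46 genes, 19 held under every alternative that tested them, leaving aside the fibroblast marker covariate. With that covariate included 13 held: Tfeb, Mitf, Ctsa, Ctsd, Glb1, Gaa, Psap, Grn, Asah1, Lamp1, Atp6v1a, Becn1 and Wipi1. Of the 36 calls between the media, 31 held leaving it aside and 21 with it included. Mitf and Lipa did not pass the filter of 5 FPKM, so that alternative did not test them. With that covariate, 1906 genes were called in the knockout over all genes (808 higher, 1098 lower) in place of 5589, and of the 46 genes 1 was called higher and 13 lower. Between the media 17 of the 46 were higher and 4 lower, beside 2976 and 3195 of the 12329 genes tested. Leaving out 1 library gave 4 to 8 of the 46 called higher in the knockout, with 4 without wild-type 2i library 1 or knockout library 3. With the highest RefSeq entry per symbol in place of the sum, Tfeb was higher in 2i than in FBS (0.83, adjusted p = 3.12e-05). The cause of these shifts was not tested.

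Some directions turned, all but Ulk1 in genes not called. In the knockout the covariate gave -0.12 for Ctsl, -0.14 for Lamp2, 0.00 for Mcoln1, 0.02 for Map1lc3a, -0.08 for Gabarapl2, -0.02 for Ulk1 and -0.10 for Atg4b; the highest entry gave -0.01 for Lamp2. Quantile normalization and TPM gave 0.01 and 0.02 for Mcoln1, 0.00 and 0.01 for Map1lc3a and 0.02 and 0.02 for Gabarap, and array weights 0.02 for Map1lc3a. Between the media, median-ratio scaling, quantile normalization and array weights gave -0.01, -0.01 and 0.00 for Flcn, array weights 0.03 for Ctsz and 0.00 for Npc1, and the covariate 0.09 for Ctsz. Leaving out 1 library gave, in the knockout, -0.01 to 0.05 for Ctsl, -0.02 to 0.02 for Mcoln1, -0.04 to 0.02 for Map1lc3a, -0.08 to 0.04 for Gabarap and -0.05 to 0.33 for Tfeb NM_011549, and between the media -0.04 to 0.05 for Flcn, -0.05 to 0.10 for Ctsz, -0.16 to 0.06 for Neu1 and -0.07 to 0.04 for Npc1.

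The labels do not say that a replicate number marks a shared source, and not every same-numbered pair correlated above 0.1, so the libraries were treated as unpaired: deviations of same-numbered wild-type and knockout 2i libraries correlated at 0.055, 0.258, 0.216 and 0.194, and those of the 2 wild-type groups at 0.027, 0.119, 0.027 and 0.186. Each wild-type 2i library except library 1 correlated best with the knockout library of its own number. With the replicate number as a block, 5567 genes were called in the knockout and 8899 between the media; of the 46 genes, 6 were higher and 17 lower in the knockout, without Fnip2 (adjusted p = 0.0651) and Ctsb (0.0532), and 28 and 8 between the media. Read depth is unknown, so how far depth limits the genes of few FPKM was not measured.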
